A study of Arabidopsis thaliana with 8 samples.

Results

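The metallothionein genes of Arabidopsis thaliana were described in shoots of seedlings of Col, the Columbia accession. The members were 5 loci, chosen by their locus names: MT1A (AT1G07600), MT1C (AT1G07610), MT2A (AT3G09390), MT2B (AT5G02380) and MT3 (AT3G15353). Of these, 3 were among the 17710 loci of the count table, MT1C, MT2A and MT2B, each with 1 gene model. MT1A and MT3 were not listed, which is not the same as a listed 0. The group was proposed with earlier results in view, in which MT2A stood out by its level, so levels are given as a description and were not tested.

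The series holds RNA-seq libraries of shoots from seedlings aged 7 days, grown on vertical MS agar plates with 16 h of light and 8 h of dark. Its 8 samples comprise 4 genotypes with 2 libraries each, which are Col, CA1-1, cae2-1 and the combined cae2-1 CA1-1, and the labels give no more than these names. Only the Col columns carry names that match a sample title, and that match rests on the names alone. The other 6 count columns match no title and were not used, so no genotype was compared with another here. The labels call the libraries biological replicates but do not say whether plants came from separate plates or days.

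Metallothioneins are small proteins whose many cysteines bind copper, zinc and cadmium through sulfur. In plants they are known for storing and buffering copper and zinc, and for copper handling in ageing leaves. Plant metallothioneins are sorted into types by the placement of their cysteines. In Arabidopsis, reporter genes have placed MT1A and MT2B mainly in the phloem, and MT2A and MT3 mainly in the mesophyll of young leaves, while the MT4 genes belong to seeds.

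The coding sequences show what the 5 members share and how they differ. MT2A and MT2B, which carry nearly all of the counts, and MT1C with its close copy MT1A are printed from RefSeq's TAIR10.1 assembly, 5′ to 3′, with the cysteine codons (TGT or TGC, in frame) in capitals. MT1A and MT1C lie on chromosome 1 (minus and plus strand), MT2A on chromosome 3 and MT2B on chromosome 5 (both minus strand).
MT2A: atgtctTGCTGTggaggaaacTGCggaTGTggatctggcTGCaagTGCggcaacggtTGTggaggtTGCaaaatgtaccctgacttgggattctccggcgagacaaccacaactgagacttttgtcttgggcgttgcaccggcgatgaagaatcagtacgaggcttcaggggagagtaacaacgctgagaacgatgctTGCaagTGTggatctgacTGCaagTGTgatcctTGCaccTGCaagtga
MT2B: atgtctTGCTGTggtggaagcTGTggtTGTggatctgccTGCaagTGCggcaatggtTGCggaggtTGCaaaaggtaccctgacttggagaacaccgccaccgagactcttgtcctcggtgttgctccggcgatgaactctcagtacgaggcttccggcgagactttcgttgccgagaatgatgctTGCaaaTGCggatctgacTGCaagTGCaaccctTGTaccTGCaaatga
MT1C: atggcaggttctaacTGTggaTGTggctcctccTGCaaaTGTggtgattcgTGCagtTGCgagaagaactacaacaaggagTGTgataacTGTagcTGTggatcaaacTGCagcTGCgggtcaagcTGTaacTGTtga
MT1A: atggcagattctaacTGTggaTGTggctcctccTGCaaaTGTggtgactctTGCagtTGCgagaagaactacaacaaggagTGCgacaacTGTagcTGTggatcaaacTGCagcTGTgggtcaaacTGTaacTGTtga

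Cysteine made up 28.9% of the codons of MT1C and of MT1A (13 of 45 in each), and none of 27363 nuclear coding loci had a higher share. The share was 18.2% in MT2B (14 of 77 codons, with 4 loci higher), 17.4% in MT3 (12 of 69, with 5 higher) and 17.3% in MT2A (14 of 81, with 6 higher). The median over all these loci was 1.68%. The capitals fall into a cluster at each end of the sequence, with a stretch free of cysteine codons between them. That stretch is 43 codons long in MT2A and 39 in MT2B, with 8 cysteine codons before it and 6 after it in both. It is 34 codons long in MT3, with 4 before and 8 after. In MT1C it is only 7 codons long, with 6 before and 7 after. Pairs of cysteine codons separated by 1 other codon, the spacing known from metal clusters, occurred 6 times in MT1C and 5 times each in MT2A, MT2B and MT3.

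The coding sequences of MT1A and MT1C were 94.9% identical over 138 aligned bases, and those of MT2A and MT2B 79.7% over 246. MT1C and MT2A shared 41.1%. No window of 25, 36 or 50 bases of the longest MT2A or MT2B transcript occurred in a transcript of another locus, so reads of that length that match them exactly match no other annotated transcript. For MT1C, 36 of 553 windows of 25 bases (6.51%), 4 of 542 windows of 36 bases and none of 528 windows of 50 bases were shared with another locus. Neither the read length nor the handling of multiply matching reads is stated in the labels, so the split between MT1C and its relatives is uncertain for short reads.

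MT2A was the most abundant listed metallothionein. It had 26121 counts in replicate 1 and 24441 in replicate 2. The gene's share of all listed counts was 1.016% (95% Wilson interval 1.004 to 1.028) for replicate 1 and 1.015% (1.002 to 1.027) for replicate 2. After TMM scaling (edgeR's trimmed mean of M values), its level in CPM (the library's scaled size set to 1e6) was 10483 in replicate 1 and 9834 in replicate 2, giving 10158 ± 459 CPM (SD, n = 2). The replicates lay close together.

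MT2B had 6637 counts in replicate 1 and 10676 in replicate 2, which are 0.258% (0.252 to 0.264) and 0.443% (0.435 to 0.452) of the listed counts. Its level was 2664 CPM in the first library and 4295 CPM in the second, or 3480 ± 1154 CPM (SD, n = 2). Replicate 2 was the higher library.

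MT1C had 22 counts in replicate 1 and 39 in replicate 2, which are 0.000856% (0.000565 to 0.00130) and 0.00162% (0.00118 to 0.00221) of the listed counts. Its level was 8.83 and 15.7 CPM, or 12.3 ± 4.85 CPM (SD, n = 2). It was thus detected in both libraries, but with few counts. The neighbouring gene AT1G07615 lies on the opposite strand, 49 bases beyond MT1C in TAIR10.1, and had 28 and 39 counts. Whether counting used the strand is not given, so reads at the adjoining ends cannot be assigned with certainty.

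**Figure D1:**
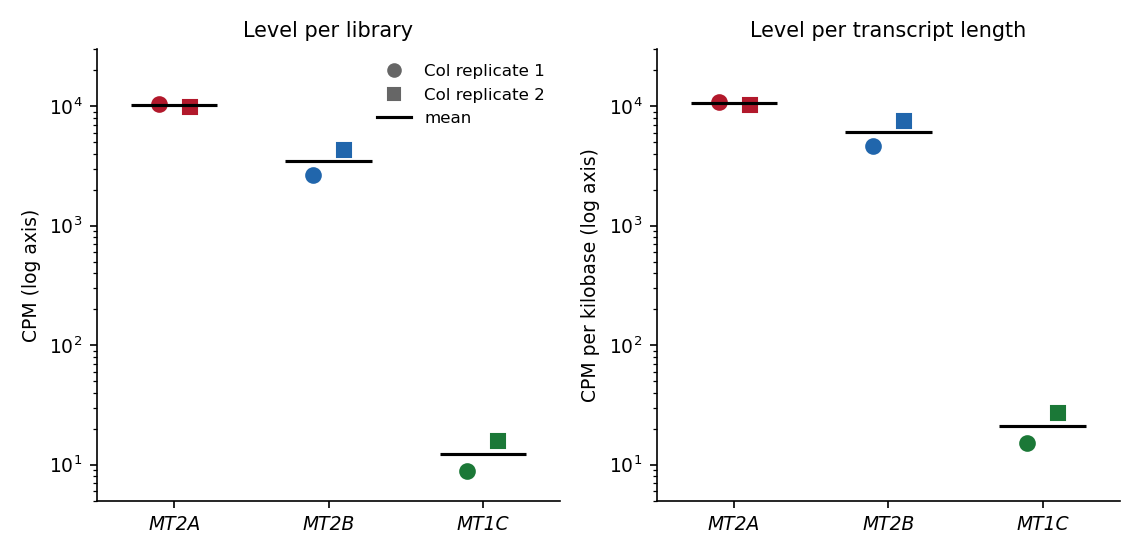
Levels of the 3 listed metallothionein genes in Col shoots, in CPM (left) and in CPM per kilobase of the longest transcript (right), both on log axes; circles are replicate 1, squares replicate 2 and lines their mean. MT2A and MT2B stand far above MT1C on both scales, and the replicates of MT2A (10483 and 9834 CPM) nearly coincide.

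Levels of different genes were set side by side per kilobase of the longest spliced transcript of each locus, which is 963 bases for MT2A, 571 for MT2B and 577 for MT1C. The level was 10549 ± 477 CPM per kilobase for MT2A (SD, n = 2), 6094 ± 2021 for MT2B and 21.2 ± 8.41 for MT1C. The order MT2A, MT2B, MT1C was the same in both libraries, and the ranges of the 3 genes did not overlap. MT2A stood at 10886 CPM per kilobase in replicate 1 and 10211 in replicate 2, against 4665 and 7523 for MT2B. The ratio of MT2A to MT2B per kilobase was 2.33 in replicate 1 and 1.36 in replicate 2, so the distance between these neighbours in the order varied between libraries. It was 3.74 and 2.18 over coding length, and 2.78 and 1.62 over the shortest transcript. MT2A has 2 annotated transcripts in TAIR10.1, of 963 and 808 bases, whereas MT2B and MT1C have 1 each. Only model 1 of MT2A was listed. How reads common to both transcripts were counted is not stated, so its counts may or may not include reads of the other transcript. MT2B exceeded MT1C 305-fold in replicate 1 and 277-fold in replicate 2 per kilobase of transcript, and 178-fold and 161-fold over coding length.

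Among all 17825 listed models with a transcript length, MT2A ranked 2 by mean CPM per kilobase, after the photosystem II subunit gene PSBR (16537 CPM per kilobase). MT2A ranked 3 in replicate 1 and 1 in replicate 2. MT2B ranked 8, with 12 in replicate 1 and 5 in replicate 2, between the photosystem I subunit gene PSAD1 (6318 CPM per kilobase) and the photosystem I antenna gene LHCA2 (5440). MT1C ranked 4843, at 21.2 CPM per kilobase, above the median of 5.78 over all listed models. Among the 1499 listed models with transcripts of 200 to 800 bases, which are those most like MT2B and MT1C in length, MT2B ranked 3 and MT1C 444. Their median was 2.78 CPM per kilobase. With the coding length in place of the transcript length, MT2A ranked 1, MT2B 4 and MT1C 2299. These ranks hold among listed models only. Of protein-coding loci in TAIR10.1 60.9% were listed, and of those with a longest transcript of 200 to 800 bases 30.3%. Unlisted genes, the mesophyll marker RBCS1A among them, could not be ranked.

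**Figure D2:**
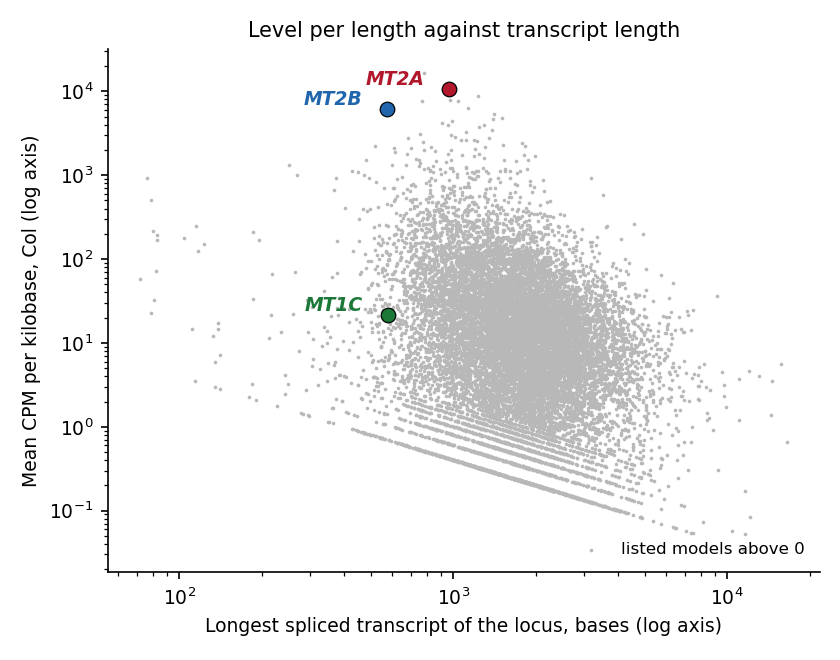
Mean CPM per kilobase in Col (y, log axis) against the length in bases of the longest spliced transcript of each locus (x, log axis); grey points are listed models above 0 and coloured points the metallothionein genes. MT2A (10549 CPM per kilobase) and MT2B (6094) lie at the upper edge, while MT1C (21.2), at nearly the same length as MT2B, lies within the main cloud.

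The 3 listed members together took 32780 counts in replicate 1 and 35156 in replicate 2. Their share of all listed counts was 1.27% (95% Wilson interval 1.26 to 1.29) for replicate 1 and 1.46% (1.44 to 1.47) for replicate 2. MT2A supplied 79.7% of these metallothionein counts in replicate 1 and 69.5% in replicate 2. MT2B supplied 20.2% and 30.4%, and MT1C 0.0671% and 0.111%.

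The split of each gene's counts between the 2 Col libraries was set against counting noise with a two-sided exact binomial test on the scaled library sizes, with Benjamini-Hochberg adjustment over all 10701 models at a mean of at least 5 CPM. It compares these libraries of 1 genotype and no conditions. Of the 3 listed members, 2 differed beyond counting noise at an adjusted p of 0.05, MT2B higher in replicate 2 and MT2A higher in replicate 1. Of all models tested, 55.3% did so, 27.6% higher in replicate 1 and 27.7% higher in replicate 2, so such a difference was common in these libraries.

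MT2B was 1.61-fold higher in replicate 2 (95% exact interval 1.56 to 1.66 for counting error, adjusted p = 1.29e-208 by the exact binomial test). Its log2 ratio, taken as log2(CPM + 0.5) of replicate 1 minus that of replicate 2, was -0.69. Of 43 other models with a mean within 2-fold of that of MT2B, 15 (34.9%) had a larger absolute log2 ratio. The difference of MT2B is thus large against counting error but ordinary among models of its level.

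MT2A was 1.07-fold higher in replicate 1 (interval 1.05 to 1.08, adjusted p = 5.42e-12 by the exact binomial test), with a log2 ratio of 0.09. Without TMM scaling this log2 ratio was 0.0018 and the adjusted p was 0.93 by the same exact test, so the call depends on the scaling. Of 10 other models with a mean within 2-fold of that of MT2A, 9 had a larger absolute log2 ratio. Of the 30 most abundant listed models only LHCB4.1 and LHCB3, both antenna genes, had a smaller one, and the median over the 30 was 0.64. MT2A was therefore among the abundant models whose level differed least between the Col libraries.

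MT1C was 1.78-fold higher in replicate 2 (interval 1.03 to 3.15), and its log2 ratio of -0.80 did not pass (adjusted p = 0.0535 by the exact binomial test). Without TMM scaling it passed (log2 ratio -0.88, adjusted p = 0.0382 by the same exact test). Of 3924 other models with a mean within 2-fold of that of MT1C, 39.1% had a larger absolute log2 ratio. The wide interval reflects 22 and 39 counts.

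**Figure D3:**
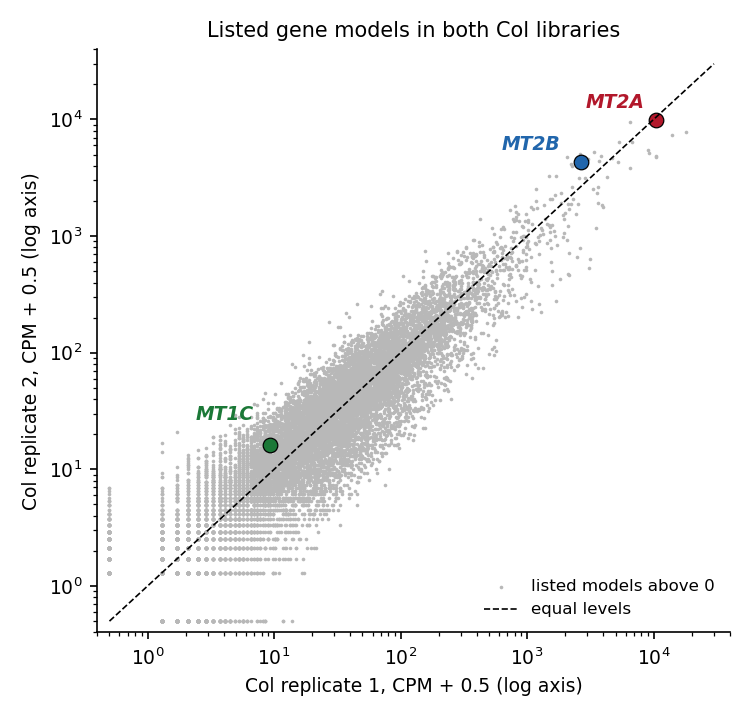
Level in Col replicate 2 against Col replicate 1, as CPM + 0.5 on log axes, for all listed models above 0 (grey) and the metallothionein genes (coloured); the dashed line marks equal levels. MT2A lies on the line, and MT2B and MT1C lie above it, 1.61-fold and 1.78-fold higher in replicate 2.

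Markers of tissues were described beside the metallothioneins, and they went both ways between the libraries. Of 5 phloem markers 4 were listed, and their sum was 849 CPM for replicate 1 against 425 for replicate 2. SUC2, the sucrose carrier of companion cells, was higher in replicate 2 (54.2 and 115 CPM). The sulfate carrier gene SULTR2;1 (384 and 136 CPM), the phloem lectin gene PP2-A1 (318 and 105 CPM) and the sieve element gene SEOR1 (92.7 and 69.2 CPM) were higher in replicate 1. APL was not listed.

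The 3 listed of 4 mesophyll markers (LHCB1.3, PSBO1 and PSAD1) had a sum of 32180 CPM for replicate 1 against 17953 for replicate 2, and all 3 passed the exact test as higher in replicate 1, where 27.6% of all models tested did. RBCS1A was not listed. Abundant photosynthesis genes outside this list went both ways. The antenna gene LHB1B2 (6461 and 9483 CPM) and the chloroplast ATP synthase gene ATPC1 (2573 and 4369 CPM) were higher in replicate 2. The antenna gene LHCA2 (10421 and 4899 CPM) was higher in replicate 1, and LHCB3 was nearly equal (4654 and 4640 CPM). Of 5 root markers, COBL9, EXPA7 and TIP2;3 were at 0 in both libraries, and the endodermal genes CASP1 and CASP2 stood at 12.8 and 7.63 CPM, beside a median of 10.5 CPM over all models. CASP1 was higher in replicate 1 (21.3 and 4.43 CPM, adjusted p = 4.84e-07 by the exact binomial test). The sum of the root list was 29.7 CPM for replicate 1 against 11.3 for replicate 2. Of 4 trichome markers GL2 was the highest (model 2 only, 301 and 297 CPM, not passing the exact test), while GL1 and GL3 stood at 1.00 and 1.21 CPM. TTG1 was listed by its model 3 only, which was at 0. Values of a gene listed without its model 1 are those of the listed model and not of the gene. Models of the 644 such loci had a median of 0.804 CPM, against 11.5 CPM for models of the other 17066 loci. Of 4 markers of leaf ageing 2 were listed, SEN1 (model 2 only) at 18.1 and 7.24 CPM and the chlorophyll breakdown gene NYE1 at 8.83 and 16.5 CPM. The part of any of these tissues in the levels of the metallothioneins was not tested. In whole shoots, fewer cells of a type and less RNA per cell cannot be told apart.

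MT1A and MT3 have no row in the table, and neither have the other family loci MT1B (AT5G56795), MT4A (AT2G42000) and MT4B (AT2G23240). Of 27562 protein-coding loci in the TAIR10.1 annotation, 16780 (60.9%) were listed, so an unlisted locus is common. Of 4297 with a longest transcript of 200 to 800 bases 30.3% were listed, and of 314 with a shorter one 6.69%. MT3 has a longest transcript of 648 bases. MT1A has an annotated transcript of 138 bases, which is its coding sequence alone.

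The annotation around these absent loci bears on where their reads could be found. The whole annotated span of MT1A lies inside AT1G07590, on the same strand, and all windows of 25, 36 and 50 bases of its transcript also occur in a transcript of AT1G07590. AT1G07590 had 17 and 24 counts (6.82 and 9.66 CPM). MT3 overlaps COX17-1 (AT3G15352), a gene for a copper chaperone of mitochondria, by 24 bases on opposite strands, and COX17-1 had 34 and 28 counts (13.6 and 11.3 CPM). These overlaps are those of TAIR10.1, and the gene models used for counting may differ. No level of MT1A or MT3 can be read from them.

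Models whose pattern was most like each member were found by the Euclidean distance in log2(CPM + 0.5) over the 2 Col libraries, a likeness over 2 values only. For MT2B these were ATPC1, a subunit gene of the chloroplast ATP synthase (2573 and 4369 CPM, distance 0.056), and AT1G54410 (2846 and 4395 CPM, distance 0.10). For MT2A the closest were the antenna genes LHCB1.3 (14052 and 7324 CPM, distance 0.60) and LHB1B2 (6461 and 9483 CPM, distance 0.70), neither with its even split. For MT1C they were SAUR36, of an auxin-induced family, with the same 22 and 39 counts, and AT1G08410, with 22 and 40.

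The rest of metal handling was described by 6 lists with 66 genes, of which 54 were listed. Of these 37 (68.5%) reached 5 CPM, 12 (22.2%) reached 100 CPM and 11 were at 0 in both libraries. Of all 17921 models, 59.7% reached 5 CPM, 11.1% reached 100 CPM and 3435 were at 0 in both. The 11 include MTP1 and IRT1, each listed by its model 2 only. The 54 genes summed to 6807 CPM per kilobase in replicate 1 and 5431 in replicate 2, against 15566 and 17761 for the 3 listed metallothioneins. In CPM the sums lay closer, at 9030 and 7191 against 13156 and 14145. Both sums leave out unlisted genes, and some metal genes entered by their model 2 only. The median of the 54 genes was 12.1 CPM per kilobase, beside 5.78 for all listed models. Of the 37 tested, 13 were higher in replicate 1 and 7 in replicate 2 beyond counting noise, with a median log2 ratio of 0.27, beside 27.6% and 27.7% of all models tested. A listed 0 can stand for 1 count, since no model was listed at 1, and allows up to 1.90 CPM (replicate 1) or 1.91 (replicate 2).

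Among copper proteins, 4 of 5 genes were listed and all 4 reached 5 CPM. PETE2, a plastocyanin that carries electrons to photosystem I, stood at 4250 and 3205 CPM. Per kilobase its mean of 2767 CPM was below that of MT2B (6094). In CPM it was above MT2B in replicate 1 (2664 for MT2B) and below it in replicate 2 (4295). The superoxide dismutase genes CSD2 of the chloroplast (170 and 311 CPM) and CSD3 of the peroxisome (113 and 142 CPM) were higher in replicate 2 by the exact test. PETE2 and PETE1 (108 and 78.1 CPM), the other plastocyanin gene, were higher in replicate 1 by the same test. CSD1 was not listed.

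Of 6 copper chaperone and regulator genes 3 were listed. The copper chaperone gene CCH, known for its rise in ageing leaves, was the highest at 972 and 627 CPM, or 728 CPM per kilobase as a mean. COX17-2 stood at 60.6 and 36.6 CPM, and both genes passed the exact test as higher in replicate 1. COX17-1 stood at 13.6 and 11.3 CPM. ATX1, CCS and the copper response regulator gene SPL7 were not listed.

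Of 9 copper transport genes 8 were listed and 6 reached 5 CPM. The tonoplast carrier gene COPT5 stood at 172 and 157 CPM, RAN1, a copper pump that supplies ethylene receptors, at 185 and 123 CPM, and the plasma membrane carrier gene COPT1 at 182 and 76.0 CPM. RAN1 and COPT1 passed the exact test as higher in replicate 1, and the chloroplast copper pump gene PAA1 as higher in replicate 2 (64.2 and 101 CPM). COPT5 did not pass. COPT3 and the copper pump gene HMA5 were at 0 in both libraries.

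Phytochelatins, the other thiol-based metal ligands of plants, are made from glutathione by phytochelatin synthase. PCS1, the main such enzyme, stood at 40.1 and 88.1 CPM, higher in replicate 2 by the exact test, and PCS2 at 0.803 and 2.82 CPM. The glutathione synthetase gene GSH2 stood at 244 and 234 CPM. Of the vacuolar phytochelatin transporter genes, ABCC2 was at 0 and ABCC1 was listed by its model 2 only, at 2.01 CPM. GSH1 was not listed. The median of the 5 listed genes was 1.09 CPM per kilobase, which is the value of PCS2. GSH2 (118) and PCS1 (30.8) lay above it, and model 2 of ABCC1 (0.351) and ABCC2 (0) below it.

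Of 22 zinc and cadmium genes 18 were listed, 10 reached 5 CPM (55.6%, beside 59.7% of all models) and none reached 100 CPM. Their median of 6.20 CPM per kilobase was close to the 5.78 of all listed models. IRT3 (57.8 and 41.0 CPM), a zinc and iron carrier, HMA1 (47.0 and 51.5 CPM), a chloroplast metal pump, and HMA4 (55.0 and 41.8 CPM), a zinc pump that loads the xylem, had the highest CPM. Per kilobase PCR2 (43.3), IRT3 (28.6) and ZIP11 (23.4) led, with HMA1 at 17.2 and HMA4 at 11.5. ZIP3, ZIP9, HMA2, HMA3 and PCR1 were at 0 in both libraries, as was model 2 of MTP1, its only listed model.

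Of 18 iron genes 16 were listed, 12 reached 5 CPM and 4 reached 100 CPM. The chloroplast ferritin genes FER1 (1148 and 875 CPM), FER3 (249 and 282 CPM) and FER4 (199 and 99.0 CPM) led, and FER1 stood at 712 CPM per kilobase as a mean. NAS2, a nicotianamine synthase gene, and IRT1, the root iron carrier gene (listed by its model 2 only), were at 0 in both libraries.

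**Figure D4:**
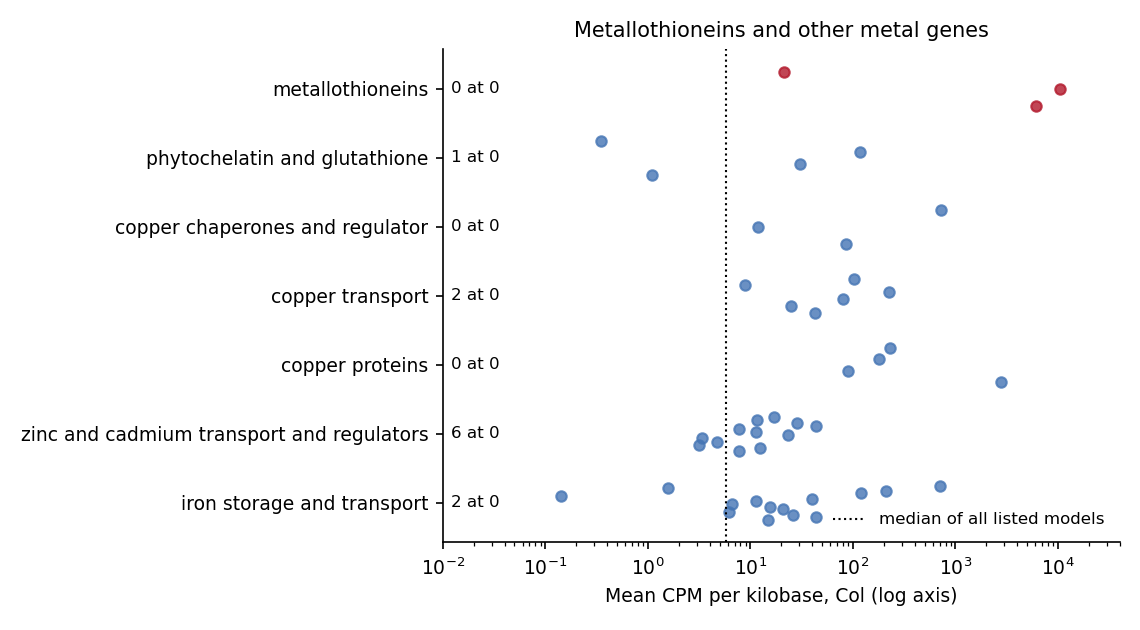
Mean CPM per kilobase in Col (log axis) of each listed gene above 0, by list, with the number of listed genes at 0 printed on the left; red points are metallothioneins, blue points other metal genes, and the dotted line is the median of all listed models (5.78). MT2A and MT2B lie above all other metal genes, of which PETE2 is the highest (2767), while MT1C (21.2) lies among them.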

How the data were processed

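RNA-seq was made from total RNA of shoots, extracted by a TRIzol-based method, per the labels' protocols. The deposited values are raw counts per gene model, as the column headers name them. The submitters' processing notes name TAIR10 as the genome build. No aligner, counter, strand setting or filter is named in the sources used here. The Col columns summed to 2571129 and 2408685 counts, and 6 other count columns were not used.

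The members and lists were chosen with earlier results of these data known. Genes to be named were all members, the other family loci, the 3 most abundant genes of each list and those at 0, and the 2 models nearest each member in level. The cell type markers were named as lists. Other genes named (unlisted ones, those ranked beside a member, PCS2, PCR2, ZIP11, PAA1, PETE1, AT1G07590, AT1G07615, LHCB3 and LHCB4.1) were chosen after their values were seen. Where a locus had several models, its highest was used.

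CPM used edgeR 4.0.16 (R 4.3.3) TMM factors, 0.969 and 1.03. The exact binomial test used scipy 1.17.1. It was tried on simulated counts with counting noise only, which says nothing of the spread between libraries. That spread is not removed by the exact binomial test. PCR copies of a molecule cannot be told from separate molecules here, so intervals and limits cover counting error only. The limit on a listed 0 is a one-sided 95% Poisson limit for at most 1 count (4.74 counts). Lengths, coding sequences and gene positions came from RefSeq's TAIR10.1, matched by locus for 17825 of 17921 models. That assembly is not the build the submitters name, so no coordinates are given. Coding sequences were aligned globally with Biopython 1.88. The planned protein comparison was made on coding sequences instead.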

Additional observations from a re-analysis of the deposited data

How the results depend on the processing

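Levels of MT1C, MT2A and MT2B moved by at most 0.927% with relative log expression factors, without scaling or without organelle genes. With the library size taken from the number in each column name they were 6.65, 5542 and 1889 CPM, since that number exceeds the summed counts. Over coding length they were 88.8, 41294 and 14870 CPM per kilobase, and with the shortest transcript MT2A stood at 12572. From 1 library alone they ranged from 8.83 to 15.7, 9834 to 10483 and 2664 to 4295 CPM. All these settings kept the order MT2A, MT2B, MT1C. The number of listed members beyond counting noise was 2 in all 6 other settings of the test, but without scaling these were MT2B and MT1C in place of MT2B and MT2A. MT1C was left out by the filter of 20 CPM, and its adjusted p ranged from 0.0382 to 0.0699 over the others. All models beyond counting noise numbered from 4662, with the filter of 20 CPM, to 6120, with that of 1 CPM, against 5913. No paired analysis was possible because only the Col columns could be matched to samples. With 22 and 39 counts, the depth limits what can be said of MT1C.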
